A study of Mus musculus with 6 samples.

Results

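The collagen chains were taken as every probe set whose single platform gene symbol reads Col, a number, a and a number, such as Col1a1. This gave 58 of the 22690 probe sets on the array, for 36 of the 12393 genes that have a probe set of their own. The arrays compared the superficial masseter, a jaw-closing muscle, with the tibialis anterior, a limb muscle, in normal adult female C57Bl/6 mice aged 6 months, which carried no treatment or engineered allele per the labels. There were 3 samples of either muscle, numbered 1 to 3 and hybridised to an array each, and the labels do not say whether these were separate mice. Values are scaled signal intensities, 1 per probe set and array. A probe set reads a short stretch near the 3′ end of a transcript, so signals are compared between arrays and not between genes.

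Collagens are the main structural proteins of the extracellular matrix, built from chains wound around one another in a long helix. Fibrillar chains assemble into the fibres of tendon and of the connective tissue that wraps muscle, and collagen IV forms the sheet-like network of the basement membrane around every muscle fibre and capillary. Collagen VI makes beaded filaments that link the basement membrane to the surrounding matrix, and fibril-associated collagens sit on the surface of fibres. In skeletal muscle most collagen mRNA is known to come from resident fibroblasts, while endothelial cells and muscle fibres also make basement membrane chains. In whole muscle, fewer cells of a type and less RNA per cell cannot be told apart.

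The genes of collagen IV lie side by side in the genome. In RefSeq's promoter table (GRCm38.p6) the transcription starts of Col4a1 and Col4a2 face each other on opposite strands, and the transcripts overlap by 22 bases at chr8:11312805-11312826. This stretch is shown because the pair shares it and because their signals are set side by side further on. Capitals mark a GC box (GGGCGG or its complement).
Col4a2, + strand: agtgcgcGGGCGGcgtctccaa
Col4a1, - strand: ttggagacgCCGCCCgcgcact
The starts of Col4a6 and Col4a5 on chromosome X lie 1343 bases apart, and Col4a4 and Col4a3 are neighbours on chromosome 1. Among protein-coding genes, Col3a1 and Col5a2, Col9a1 and Col19a1, and Col6a2 and Col6a1 are also direct neighbours. Promoter windows of 250 bases before to 50 after a start were matched for 27 of the 36 genes (30 windows). GGGCGG on either strand was found in 17 of the 30 windows, against 35.7% of all 32851 windows. CCAAT on either strand was found in 12 of them against 37.4%, and TATAAA in 5 against 13.6%.

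Collagen transcript levels were not found to differ between the muscles. Of the 58 probe sets, 33, for 23 genes, passed the filter on dim signals (a mean log2 signal of 4.84 over all 6 arrays, or a signal of 28.6), and 0 of these 33 passed an adjusted p of 0.05 in limma's test with the sample number as a block. Over all 13576 probe sets tested, 1.18% passed, so the count of the collagens is close to the background. At an unadjusted p under 0.05 there were 3 collagen probe sets, 2 of Col14a1 and 1 of Col1a1, against 13.1% of all probe sets. Paired SAM, the test that the study's design text names, also called 0 of the 33. The median difference of the 33, as log2 masseter minus tibialis anterior, was 0.03, beside 0.02 over all probe sets tested. There were 17 differences above 0 and 16 below, while 52.9% of all probe sets tested had a difference above 0. By direction, the share of all probe sets past the threshold was 0.56% higher and 0.619% lower in the masseter.

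**Figure D1:**
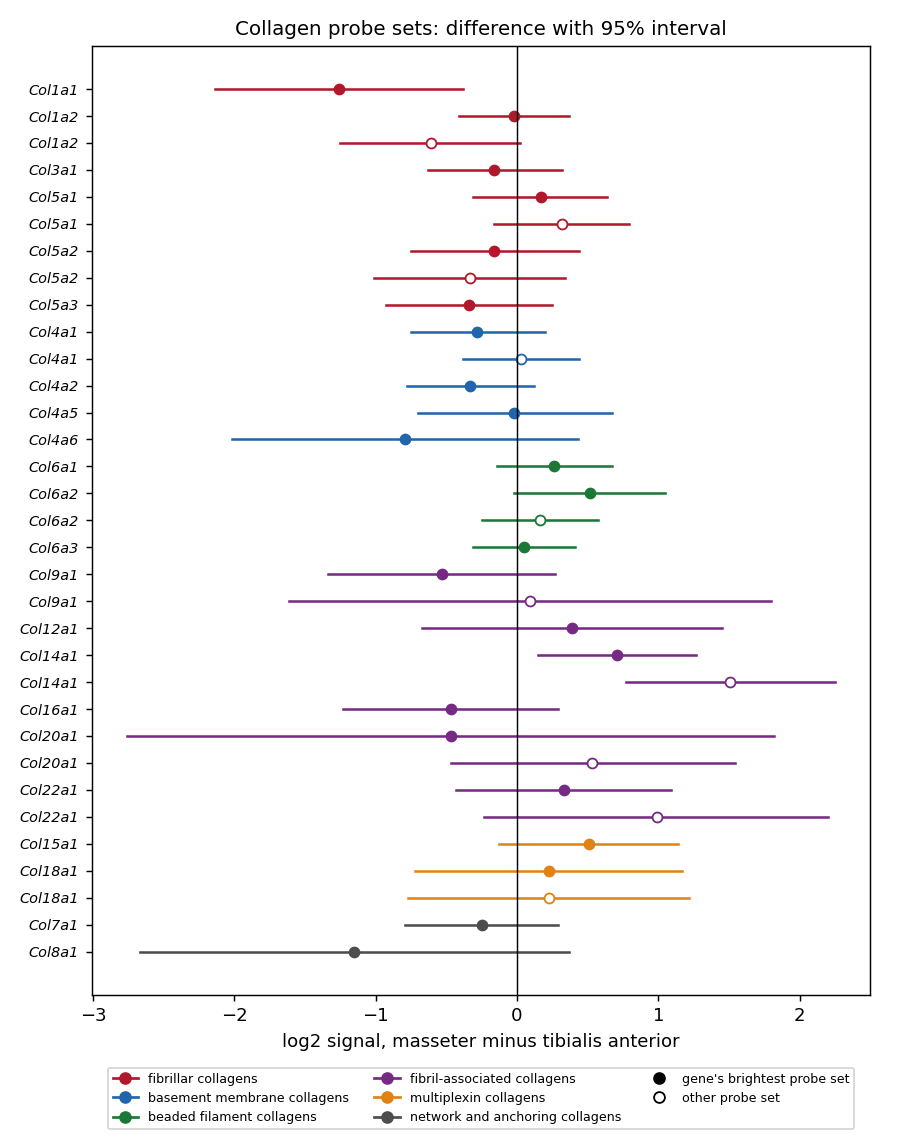
Difference in log2 signal (masseter minus tibialis anterior, horizontal axis) of each of the 33 collagen probe sets that passed the filter, with its 95% interval as a line, coloured by collagen class; filled points are each gene's brightest probe set. Most intervals cross 0, and those of Col1a1 (below 0) and both probe sets of Col14a1 (above 0) do not, although none passed after adjustment over all probe sets.

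The precision set what could be seen. Standard errors (SE) of the 33 differences ran from 0.16 to 1.00 on the log2 scale. For 14 of the 33 the 95% interval lay within 1 on either side of 0, a range of 2-fold either way. For the other 19 a difference of 2-fold or more lies within the interval in at least 1 direction. The intervals are for each probe set alone and are not adjusted for the number of probe sets.

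Among the fibrillar chains, Col1a1 had the most negative difference. Col1a1 encodes the more abundant chain of collagen I, the main collagen of tendon and bone. Its signal in samples 1, 2 and 3 was 57.8, 55.1 and 39.5 in the masseter against 119, 67.0 and 217 in the tibialis anterior, the order kept for all signals that follow. All tibialis arrays lay above all masseter arrays, and the tibialis arrays spread widely, with number 3 the highest. The log2 difference was -1.26 ± 0.38 (SE, n = 3 per muscle; 95% interval -2.14 to -0.38), which did not pass (limma adjusted p = 0.2). Without both samples numbered 3 it was -0.66 (adjusted p = 0.457), without tibialis anterior 3 alone, in a fit without the block, -0.83 (adjusted p = 0.442), and without both numbered 2 it was -1.75 (adjusted p = 0.0572). The gene's other probe set lay under the filter, with 2.7, 22.3 and 9.9 in the masseter and 5.8, 26.4 and 94.8 in the tibialis anterior. Its highest array, too, was tibialis anterior 3.

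The partner chain of collagen I, Col1a2, was read by a bright and a dimmer probe set. The bright one gave 612, 695 and 555 in the masseter and 560.3, 595 and 734 in the tibialis anterior, and these ranges overlap. Its difference was -0.02 ± 0.17, with a 95% interval of -0.41 to 0.37. The dimmer one gave 90.9, 105 and 83.2 against 109.9, 115 and 225, so that all tibialis arrays were above all masseter arrays. Its difference was -0.61 ± 0.28 (limma adjusted p = 0.398), and -0.28 without tibialis anterior 3 in a fit without the block. The 2 probe sets of this gene thus differ in size of difference, although both had their highest signal in tibialis anterior 3. As a gauge of RNA integrity and labelling, the Gapdh controls had a 3′ signal above their 5′ signal by 2.66 ± 0.23 times in the masseter, against 1.94 ± 0.11 times for tibialis arrays (SD, n = 3 each), and these ranges do not overlap. The same ratio for Actb overlapped, at 2.96 ± 0.34 for masseter arrays and 2.70 ± 0.11 for tibialis arrays (SD, n = 3 each). The part of these ratios in the collagen values was not tested.

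Col3a1, the chain of collagen III, which forms fine reticular fibres in the sheaths of muscle, had signals of 698, 571 and 407 in the masseter and 519, 699.6 and 621 in the tibialis anterior. The groups overlap, and the difference was -0.16 ± 0.21 (95% interval -0.63 to 0.32). Collagen V, which nucleates fibres of collagen I, was read for its 3 chains. Col5a1 gave 164, 125 and 153 against 109.5, 129 and 157, a difference of 0.17 ± 0.21. Its other kept probe set gave 149, 112 and 129 against 97.7, 110.3 and 104, which do not overlap, with a difference of 0.32 ± 0.21 (limma adjusted p = 0.585). Col5a2 had differences of -0.16 ± 0.26 and -0.33 ± 0.29 in its 2 kept probe sets, and the dimmer one did not overlap, with 37.1 to 57.7 in the masseter below 58.3 to 67.6 in the tibialis anterior. Col5a3 had a difference of -0.34 ± 0.26, with signals of 47.2 to 97.4 and of 74.6 to 119.

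The fibrillar genes as a class had 6 of 9 members past the filter. Their median difference was -0.16, with 1 gene above 0 and 5 below, and the medians within the numbered pairs were 0.28, -0.21 and -0.51. The pairs therefore did not share a direction, and the median ran from -0.41 to 0.12 when samples were left out. Of the 9 kept fibrillar probe sets, 5 had their highest signal in tibialis anterior 3, whereas 12.2% of all probe sets tested did. These were the kept probe set of Col1a1 and both kept probe sets of Col1a2 and of Col5a2, so some genes count more than once. The gene for Sparc, a matrix protein that binds collagen, had its highest signal in the same array, at 971 against 504 and 547 in tibialis anterior 1 and 2. This array and Sparc were chosen after the values were seen.

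**Figure D2:**
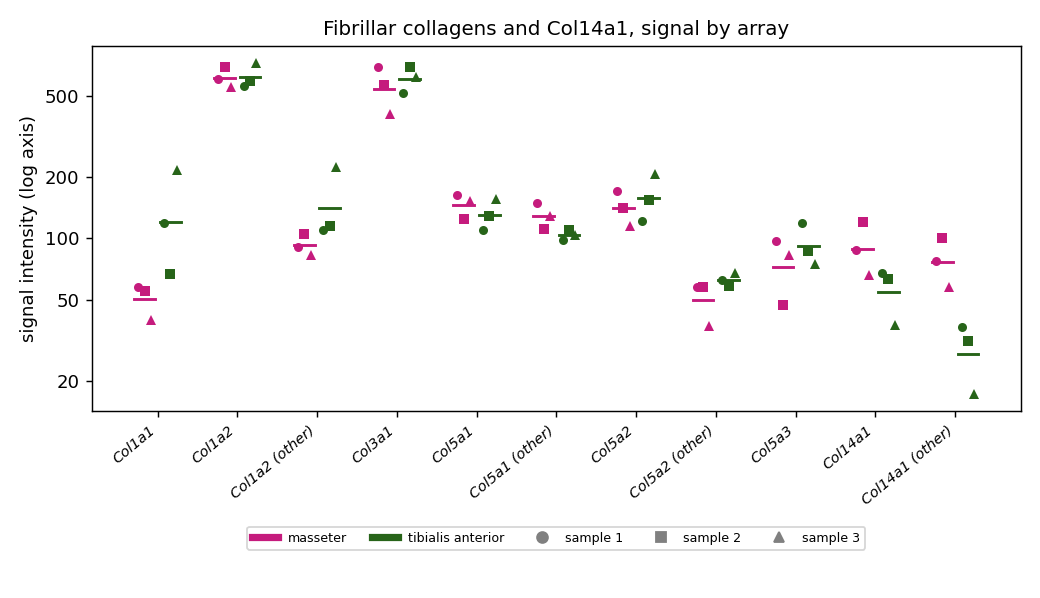
Signal intensity (vertical log axis) of each kept fibrillar probe set and of the probe sets of Col14a1 in masseter (pink) and tibialis anterior (green) samples, with the sample number as the marker and bars at the geometric mean of 3 arrays. Col1a1 and the dimmer probe set of Col1a2 have a high point in tibialis anterior 3 (217 and 225). The muscles do not overlap in the dimmer probe sets of Col14a1 and Col5a1 (masseter above). They do not overlap either in Col1a1 and the dimmer probe sets of Col1a2 and Col5a2 (masseter below).

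Of the fibril-associated chains, Col14a1 had the most positive difference. Collagen XIV coats collagen fibres and takes part in setting their diameter. Its brighter probe set had signals of 88.1, 120.3 and 66.4 in the masseter and 67.8, 62.9 and 37.5 in the tibialis anterior. Masseter 3 lay just under tibialis anterior 1, and the masseter was above the tibialis anterior in all 3 numbered pairs. The log2 difference was 0.71 ± 0.24 (95% interval 0.15 to 1.27), with a limma adjusted p of 0.257.

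The dimmer probe set of Col14a1 separated the muscles. It had 77.7, 101 and 57.8 in the masseter and 36.6, 31.3 and 17.1 in the tibialis anterior, with no overlap. The difference was 1.51 ± 0.32 (95% interval 0.77 to 2.25). It was the smallest adjusted p of any collagen probe set and did not pass (limma adjusted p = 0.0792; q = 0.0625 with paired SAM). The tibialis mean of 27.0 lay under the filter level, and the masseter mean of 76.8 was 2.68 times that level. This ratio is not a lower bound on the difference between the muscles. Over 16 alternatives, in processing or in the samples left out, this difference stayed between 1.10 and 1.73, with adjusted p from 0.0625 to 0.419. The stricter filter, at the 60th percentile, did not keep this probe set and is not among the 16.

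The remaining fibril-associated chains were dim. Col9a1, a cartilage chain, had 26.7 to 38.0 in the masseter and 45.5 to 49.2 in the tibialis anterior in its brightest probe set, which do not overlap. Its difference was -0.53 ± 0.35, while its other kept probe set had 0.09 ± 0.74. Col16a1 had a difference of -0.47 ± 0.33. Col12a1, a chain found in tendon and muscle sheaths, had 26.9, 27.1 and 67.6 against 26.8, 29.8 and 27.6, so that masseter 3 alone stood apart (0.39 ± 0.46). Col22a1, a chain of the muscle-tendon junction, had differences of 0.33 ± 0.33 and 0.99 ± 0.53. Col20a1 had differences of opposite sign in its 2 kept probe sets, -0.47 ± 1.00 and 0.53 ± 0.44, and the first ranged from 4.6 to 88.6 within the masseter. Over the 6 kept genes of this class the median was -0.07, with 3 above 0 and 3 below.

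For collagen IV, the 4 kept genes had a median difference of -0.30, with 0 above 0 and 4 below, and medians of 0.02, -0.14 and -0.52 within the numbered pairs. Col4a1 and Col4a2 encode the chains of the common basement membrane network. The brightest probe set of Col4a1 had 742, 310.3 and 342 in the masseter and 692, 325 and 623 in the tibialis anterior. Masseter 1 was the highest array of all, and the groups overlap (-0.28 ± 0.21, 95% interval -0.75 to 0.20). Its other kept probe set had 299.5, 285 and 286 against 304, 221 and 339.5, with a difference of the other sign (0.03 ± 0.18). Col4a2 had 325, 261 and 266 against 479, 233 and 403 (-0.33 ± 0.20, 95% interval -0.78 to 0.12).

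The head-to-head genes Col4a1 and Col4a2 had the same 3 highest arrays, which were masseter 1 and tibialis anterior 1 and 3. The mean log2 signal of 9 endothelial marker genes ordered the arrays as Col4a2 did. It was 7.35, 7.18 and 7.22 for masseter samples against 7.64, 7.09 and 7.50 for tibialis samples. The brightest probe set of Col4a1 ordered the arrays otherwise, with masseter 1 the highest. The likeness to Col4a2 was noticed after the values were seen and was not tested. The chains Col4a5 and Col4a6 had differences of -0.02 ± 0.30 and -0.79 ± 0.53, and Col4a6 ranged from 11.4 to 42.7 within the masseter.

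**Figure D3:**
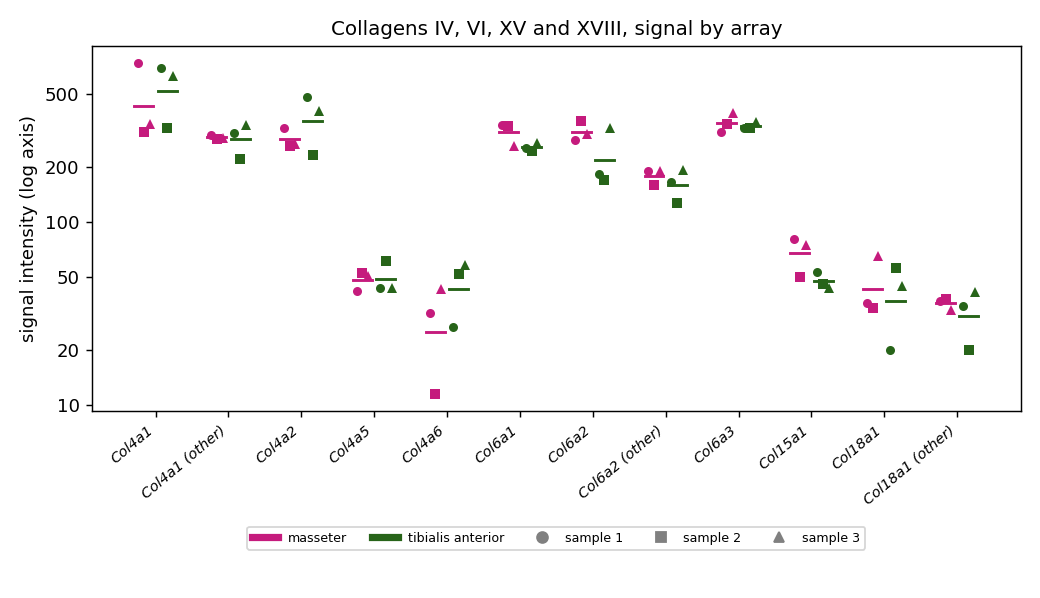
Signal intensity (vertical log axis) of the kept probe sets of collagens IV, VI, XV and XVIII in masseter (pink) and tibialis anterior (green) samples, with the sample number as the marker and bars at the geometric mean of 3 arrays. The muscles overlap in every one of these probe sets, and Col4a1 and Col4a2 are high in tibialis anterior 1 and 3.

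Collagen VI, whose mutation causes muscular dystrophy in humans, had positive differences in all 4 kept probe sets of its 3 genes, and none passed. Col6a1 had 338, 333 and 259 in the masseter and 254, 245 and 271 in the tibialis anterior (0.26 ± 0.18, 95% interval -0.14 to 0.67). Col6a2 had 279, 354 and 300.2 against 182, 170.1 and 327 (0.52 ± 0.23, interval -0.02 to 1.05; limma adjusted p = 0.398), and 0.16 ± 0.18 in its other probe set. In both genes masseter 3 lay below tibialis anterior 3, while pairs 1 and 2 had the masseter higher. Col6a3 had 309, 342 and 394 against 327, 327 and 352 (0.05 ± 0.16). Its interval, -0.31 to 0.41, was among the narrowest of the family.

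Of the multiplexins, basement membrane collagens that carry sugar chains, Col15a1 had 80.7, 50.1 and 75.1 in the masseter and 53.3, 46.0 and 43.3 in the tibialis anterior. It was higher in the masseter in all 3 numbered pairs, yet masseter 2 lay under tibialis anterior 1 (0.51 ± 0.28, limma adjusted p = 0.505). Col18a1, the source of the fragment endostatin, had differences of 0.23 ± 0.41 and 0.23 ± 0.43. Col7a1, the anchoring fibril chain of skin, had -0.25 ± 0.24. Col8a1, a chain of vessel walls, had 5.0, 41.6 and 45.1 against 48.0, 48.7 and 44.0, so that its difference of -1.15 ± 0.66 came with 1 low array, masseter 1. Over the 13 kept genes that are neither fibrillar nor of collagen IV the median difference was 0.23, with 8 above 0 and 5 below and medians of 0.01, 0.07 and 0.16 within the pairs.

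Ranges that do not overlap were found for 2 kept collagen probe sets with the masseter above (Col14a1 and Col5a1) and for 4 with the masseter below (Col1a1, Col1a2, Col5a2 and Col9a1). Over all probe sets tested, the shares were 9.21% and 8.63%. Of the 10 genes with more than 1 kept probe set, 3 (Col4a1, Col9a1 and Col20a1) had differences of both signs.

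**Figure D4:**
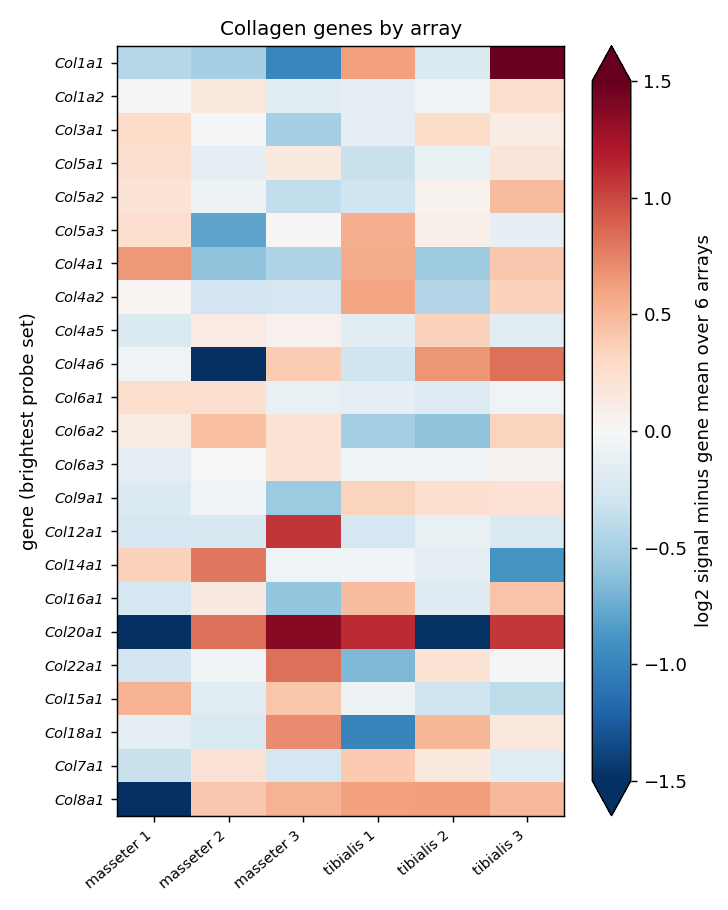
Log2 signal of the brightest kept probe set of each of the 23 collagen genes (rows) on each array (columns), minus the gene's mean over the 6 arrays; red is above and blue below that mean, and colours saturate at 1.5. Col1a1 is highest in tibialis anterior 3 (signal 217), Col14a1 is lowest there (37.5), and Col20a1 and Col8a1 are lowest in masseter 1 (4.6 and 5.0).

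The 13 genes with no probe set past the filter were Col2a1, Col4a3, Col4a4, Col9a2, Col9a3, Col10a1, Col11a1, Col11a2, Col13a1, Col17a1, Col19a1, Col25a1 and Col26a1. Several are known from cartilage (Col2a1, Col9a2, Col10a1), kidney (Col4a3, Col4a4) or epithelium (Col17a1). Their signals ran from 0.7 to 57.5, and the means of their probe sets from 1.59 to 26.3. Col25a1, a transmembrane collagen needed for motor innervation of muscle, had 57.5, 10.2 and 37.9 in the masseter and at most 15.3 in the tibialis anterior. Nearest the filter were Col20a1 and Col8a1 inside it, at means of 31.2 and 31.4, and Col11a2 and the dim probe set of Col3a1 outside it, at 26.3 and 26.5. Col6a4, Col6a5, Col6a6, Col8a2, Col23a1, Col24a1, Col27a1 and Col28a1 are not analysed here.

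Genes that make, mature, degrade or bind collagen gave no call either. Of the enzymes and chaperones of collagen synthesis, such as P4hb and Serpinh1, 0 of 14 measured genes passed in either direction (median 0.09). Of the maturation and cross-linking genes, 0 of 8 passed (median 0.19), of the breakdown genes 0 of 9 (median 0.13), of the receptors 0 of 3 (median 0.01) and of the laminins and other partners in the basement membrane 0 of 10 (median -0.06). The same medians stand beside 0.02 over all probe sets and a background of 1.18%.

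Closest to the threshold were the enhancers of procollagen trimming, Pcolce and Pcolce2, chosen after their values were seen. They help the enzyme Bmp1 remove the end peptide of fibrillar procollagens. Pcolce had signals of 224 to 277 in the masseter and 94.9, 116 and 146 in the tibialis anterior, with no overlap (1.09 ± 0.22, limma adjusted p = 0.0626). Pcolce2 had 146, 230.2 and 173 against 90.6, 91.8 and 71.4, again apart (1.10 ± 0.21, limma adjusted p = 0.0548). Each passed in 3 of 18 alternatives.

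Markers of fibroblasts and of tendon, which make much of the fibrillar matrix, held genes past the threshold. These lists were chosen with earlier results of these data known. The background was 0.56% of all probe sets tested higher and 0.619% lower in the masseter. Of 9 measured fibroblast markers, 2 passed with the masseter higher (Dpt and Cd34), 0 with it lower, and 7 missed the threshold. Dpt, dermatopontin, a matrix protein that binds collagen fibres, had 938, 918 and 715 against 541, 289 and 330.3 (1.19 ± 0.19, limma adjusted p = 0.0267). Cd34, a surface protein of fibroblast progenitors and also of endothelium, had 291, 353 and 285 against 138, 159 and 170.5 (0.99 ± 0.18, limma adjusted p = 0.0427). In both genes every masseter array was above every tibialis array. In fits without the block that leave out a single array, the Dpt call ended without each of masseter 1, 2 and 3 and tibialis anterior 2 and 3 (limma adjusted p = 0.123, 0.181, 0.0723, 0.142 and 0.158). With both samples of a number left out, it ended without number 2 (0.104) and number 3 (0.0599). The Cd34 call ended without any single array (0.0651 to 0.151) and without either number 1, 2 or 3 (0.0702, 0.233 and 0.06). It also ended with quantile normalization (limma adjusted p = 0.0548). With the mean salivary marker signal as covariate and no block, the calls of Dpt and Cd34 both ended (limma adjusted p = 0.13 and 0.0688).

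Among 5 measured tendon markers, 3 had a difference below 0 (Thbs4, Comp and Tnmd) and 2 above (Kera and Fmod). Of these 5, 1 passed with the masseter lower, 0 with it higher, and 4 missed the threshold. This was Thbs4, a thrombospondin of tendon and the muscle-tendon junction, with 172, 138 and 108 against 579.8, 263 and 527 and no overlap (-1.65 ± 0.25, limma adjusted p = 0.025). Without the block, the Thbs4 call ended without each of masseter 1, 2 and 3 and tibialis anterior 1 and 3 (limma adjusted p = 0.0555, 0.13, 0.102, 0.138 and 0.13), and with the block it ended without number 3 (0.0598). Comp and Tnmd, given so that all 5 are shown, were also lower in the masseter and missed the threshold. Their differences were -0.66 ± 0.20 and -0.40 ± 0.36 (limma adjusted p = 0.192 and 0.706), and the ranges of Comp did not overlap. Kera, keratocan, a small leucine-rich matrix protein of tendon and cornea, lay the other way and missed the threshold. It had 80.9, 116 and 46.4 in the masseter against 17.9, 39.5 and 4.4, with no overlap (2.38 ± 0.47, limma adjusted p = 0.0626), and was chosen after its values were seen. Its tibialis mean of 14.6 lay under the filter level. Its masseter mean of 75.9 was 2.65 times that level, a ratio that is not a lower bound on the difference. The calls of Dpt, Cd34 and Thbs4 also ended in limma without the intensity trend (adjusted p = 0.247, 0.247 and 0.235) and in paired SAM (q = 0.116, 0.115 and 0.0863). Col1a1 and Thbs4 both had their lowest tibialis signal in number 2. The 8 tendon markers with a probe set include Scx, Chad and Cilp2, which lay under the filter. The mean log2 signal of all 8 was 5.48 to 5.94 over the masseter arrays and 5.89 to 6.06 over the tibialis arrays. That of the fibroblast markers was at least 8.61 in every masseter array and at most 8.44 in every tibialis array. The part of these cell types in the values of Col1a1 and Col14a1 was not tested.

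**Figure D5:**
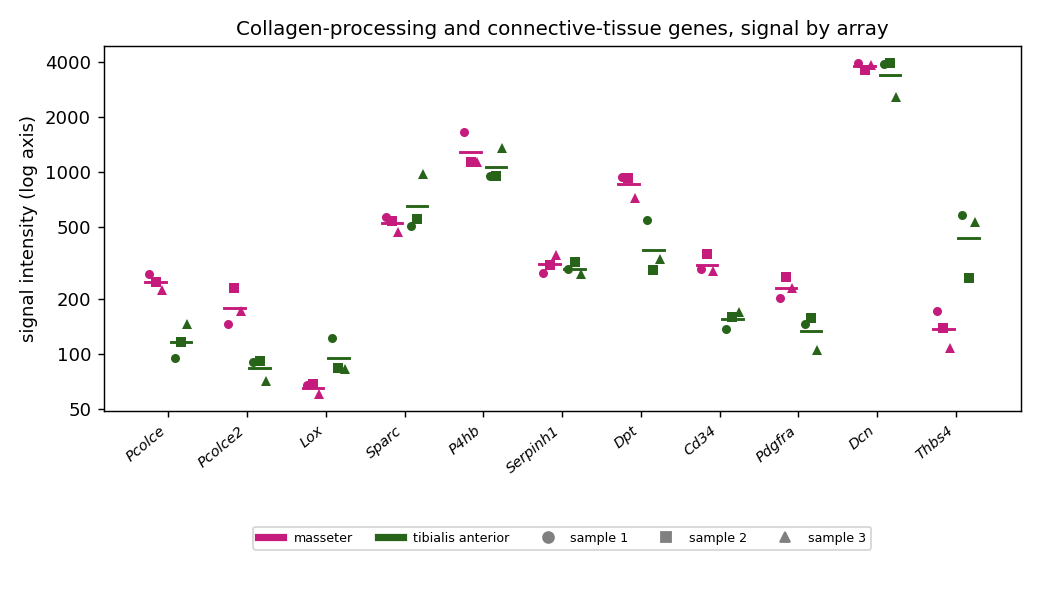
Signal intensity (vertical log axis) of collagen-processing genes and of fibroblast and tendon genes in masseter (pink) and tibialis anterior (green) samples, with the sample number as the marker and bars at the geometric mean of 3 arrays. Pcolce, Pcolce2, Dpt, Cd34 and Pdgfra lie higher in every masseter sample, and Thbs4 and Lox lie lower. Dpt, Cd34 and Thbs4 passed the threshold, while Pdgfra (0.78) and Lox (-0.54) did not (limma adjusted p = 0.118 and 0.377).

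Both muscles carried the markers of skeletal muscle, with mean log2 signals of 13.54 to 14.04 over 10 genes, of which Myh4 and Actn3 were lower in the masseter (-1.47 and -0.88, limma adjusted p = 0.00265 and 0.0342). The Actn3 call ended in 10 of 18 alternatives, among them no filter (adjusted p = 0.138), both samples numbered 2 left out (0.0809) and, without the block, each single array left out but masseter 3 (0.0725 to 0.146). Without the intensity trend (0.155 and 0.292) and in paired SAM (q = 0.0603 and 0.227) the calls of Myh4 and Actn3 both ended. Salivary gland markers varied among arrays, with a mean log2 signal of 10.62 in masseter 1, 6.79 and 5.54 in the other masseter arrays and 4.85 to 6.73 in the tibialis anterior. Pip, Smr3a and Chia1 were higher in the masseter by 4.77, 3.14 and 4.86, but the ranges of the muscles overlap. Masseter 3 (24.2, 42.1 and 24.6) lay below tibialis anterior 1 (72.4, 376.1 and 126.4) in these genes. The tibialis means of Pip and Chia1, 17.5 and 15.3, lay under the filter level. Their masseter means were 16.7 and 15.6 times that level, although masseter 3 itself lay under it in both genes. These ratios are not lower bounds on the differences. The calls of Pip, Smr3a and Chia1 rested on the block and ended without it on all 6 arrays (limma adjusted p = 0.302, 0.529 and 0.345). In fits without the block the differences were 2.74, 1.07 and 2.56 when masseter 1 was left out. With the block and without both samples numbered 1, Pip and Smr3a still passed (adjusted p = 0.0152 and 0.019). Without masseter 1, or both samples numbered 1, the count of collagen probe sets past the threshold was still 0. The difference of the dimmer Col14a1 probe set, 1.51 on all 6 arrays, was 1.72 without number 1. With the salivary covariate and no block it was lower, at 1.32 (limma adjusted p = 0.26). Without masseter 1 alone it lay between these 2 values. Adipoq was the 1 adipocyte marker of 4 past the threshold (1.26, limma adjusted p = 0.0167). That call also rested on the block: it ended without it (adjusted p = 0.228), and passed with the block when both samples numbered 1 were left out (0.0317). It ended too without the intensity trend (0.169) and in paired SAM (q = 0.0625), and its difference was 0.80 without the block and masseter 1. Of the endothelial, smooth muscle and pericyte, Schwann cell, skin, macrophage, and cartilage and bone markers, 0 passed (of 9, 9, 4, 3, 7 and 1 measured).

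The brightest markers that missed the threshold are given by their log2 differences. They were Gsn and Dcn of fibroblasts (0.70 and 0.16), Fmod of tendon (0.26), Sp7 of bone (0.29), Egfl7 and Esam of endothelium (-0.21 and -0.32) and Rgs5 and Acta2 of pericytes and smooth muscle (-0.44 and -0.47). The same holds for Mbp and Pmp22 of Schwann cells (0.80 and 0.61), Krt10 and Lor of skin (0.43 and 0.36), Csf1r and Lyz2 of macrophages (0.47 and 0.23), Fabp4 of fat cells (0.27), Smr2 and Amy1 of salivary gland (-0.64 and 1.87) and Mb and Acta1 of muscle (0.04 and -0.09).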

How the data were processed

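Each deposited value is a linear intensity, the scanner signal summarised over the probes of a probe set. MAS5 and GCOS appear in the submitters' processing notes; versions and settings were not given in the sources used here. Every array had a 2% trimmed mean of 150.1, so no scaling was added; medians were 44.1 to 50.7. Precision is limited by having 6 arrays. The platform table gave the gene symbols, of which 0 needed updating by gene identifier.

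Deposited intensities below 1 were raised to 1 before log2 was taken. Of 22626 probe sets without controls, 13576 with a mean log2 signal at or above the 40th percentile were tested with limma 3.58.1 in R 4.3.3 (muscle, with the sample number as a fixed block since the design text describes paired comparisons; eBayes with intensity trend; two-sided). Benjamini-Hochberg adjustment was over all 13576, at 0.05. Mean signals are geometric. With so few arrays the p-values measure the spread between these samples, which may be technical. The procedure was tested on simulated data with known muscle differences and independent noise. The simulation held no effect of sample number, so it cannot judge the choice of block. Class medians use each gene's brightest probe set. Named genes were every collagen gene, up to 3 genes past the threshold of each other list and the 2 brightest markers of other cell types, in part given as counts. The members and lists were chosen with earlier results of these data known. Alternatives were no block, eBayes without trend, paired SAM, other filters, an offset of 16, quantile normalization, a salivary covariate, the mean over probe sets and leaving out samples.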

Additional observations from a re-analysis of the deposited data

How the results depend on the processing

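The count of collagen probe sets past the threshold was 0 in the fit as reported and in all 17 alternatives that give one, with 1 to 8 at an unadjusted p under 0.05 in the limma fits and a smallest adjusted p of 0.0572. Of 395 values for the 23 collagen genes under alternatives, 370 kept their direction, 25 reversed and 0 passed. By the labels the samples share only a number, and this was not shown to pair them. Deviations from the muscle means correlated at 0.039, 0.152 and 0.101 within numbers 1, 2 and 3. Not every sample correlated best with its own number. The mean salivary marker signal did fall from number 1 to number 3 in both muscles. It was 10.62, 6.79 and 5.54 in the masseter and 6.73, 5.82 and 4.85 in the tibialis anterior, and the reason was not tested. With no replicate block, 138 probe sets passed over the whole array in place of 160, and the collagen count stayed 0.

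Over the whole array, 13 passed with eBayes without trend, 65 with paired SAM and 87 with no replicate block and the salivary signal as covariate. Leaving out samples gave 47 to 188. The median of the fibrillar genes, -0.16, moved by less than the spread of the pair medians but changed sign without both samples numbered 3 (0.12). That of collagen IV genes lay between -0.63 and -0.11 when samples were left out. That of the other collagen genes was 0.14 with an offset of 16, 0.38 with the salivary covariate and -0.06 to 0.36 when samples were left out.

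Directions reversed with the salivary covariate for Col4a5 (0.08), Col20a1 (0.96) and Col1a2 (0.01), and with the mean over probe sets for Col20a1 (0.03) and Fabp4 (-0.01). When 1 sample, or both samples of a number, were left out, differences ran from -0.67 to 0.02 for Col4a1, -0.14 to 0.15 for Col4a5, -0.04 to 0.13 for Col6a3, -1.86 to 1.31 for Col20a1, 0.00 to 0.61 for Col22a1, -0.14 to 0.18 for Col1a2, -0.45 to 0.07 for Col3a1, -0.04 to 0.30 for Col5a1, -0.49 to 0.18 for Col5a2, -0.21 to 0.70 for Col18a1, -0.05 to 0.31 for Dcn and -0.27 to 1.10 for Lor. For Col4a1 and Col5a1 the sign changed only when both samples numbered 3 and both numbered 1, respectively, were left out, and not in the fits without single arrays. The cause was not tested, and dim signals close to background are imprecise.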
